A study of Mus musculus with 20 samples.

Results

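The promoter windows of the mouse major histocompatibility complex (MHC) were taken as all windows on chromosome 17 whose start lies between 34.1 and 36.7 Mb on build GRCm39. The rule chose 270 of the 54034 windows of the genome. Another 2098 windows lie on the rest of chromosome 17. Bisulfite sequencing gave DNA methylation levels for 20 single mouse blastocysts, the embryo stage just before implantation. The control group held 10 embryos (replicates 1 to 10), which the labels describe no further. The mutant group held 10 embryos (replicates 11 to 20) from oocytes carrying the Padi6 P620A allele. PADI6 is an oocyte protein that the egg passes on to the embryo, so the mutation acts through the mother, and the genotype of the embryo itself is not given in the sources used here. Mother, litter and sex of an embryo are not given either, so the tests measure the spread between these embryos. The comparison asks how promoters of blastocysts are methylated after development from mutant eggs.

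The MHC is the part of the genome that holds the genes of antigen presentation. Class I genes such as H2-K1 and H2-D1 encode the surface molecules that show peptides from inside the cell to cytotoxic T cells, and class II genes such as H2-Aa encode those that show peptides taken up from outside to helper T cells. Class III lies between class II and H2-D1, while H2-K1 lies on the far side of class II. It is a gene-dense stretch with complement, cytokine and heat shock genes and many housekeeping genes, none of which presents antigen. Pou5f1, which encodes the pluripotency factor OCT4 of the inner cell mass, lies among the class I genes. Promoter methylation at CpG dinucleotides is in general low where CpG are dense and higher where they are sparse.

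The windows carry positions and no gene names, and the RefSeq tables used here are on build GRCm38.p6, so no window was tied to a gene. RefSeq was used by symbol alone, for gene order and for what the promoters hold. In gene order the stretch from H2-K1 to H2-Eb2 has 20 protein-coding genes, that from Notch4 to Ddx39b in class III has 57, and that from H2-D1 to H2-T3 in class I has 43. The nearest protein-coding neighbours of Pou5f1 are H2-Q10 on one side and Tcf19 on the other. Of 85 genes listed for the complex, 68 had RefSeq promoters, with 87 promoters of 250 bases before to 50 after the start. The median number of CpG was 3 in the 9 class II promoters and 9 in the 14 class I promoters. The class I list runs past the end of the region: H2-M2, H2-M3 and H2-M5 lie beyond it, and without them the median was 11 in 11 promoters. It was 24 in the 21 promoters of a class III list of housekeeping genes and others such as Notch4 and Tnxb (5 CpG each). The median was 34.5 in the 6 promoters of Brd2, Ring1 and Rxrb, which lie at the class II side and encode chromatin and transcription regulators. Over all 32851 RefSeq promoters the median was 7. The motif CCAAT, searched on both strands, was present in 88.9% of the class II and 78.6% of the 14 class I promoters. The share was 81.8% in class I without the H2-M genes and 37.4% over all RefSeq promoters. Over all 87 listed promoters it was 50.6%. By list it ran from 0 for cytokine genes and for Brd2, Ring1 and Rxrb to 100% of the 3 heat shock promoters, with 75% of the 4 of antigen processing genes.

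The promoters below show that contrast in the sequence itself: H2-Aa for class II, H2-K1 for class I, Ddx39b (an RNA helicase of messenger RNA export) for class III, and Pou5f1. Each is the 250 bases before the start given by RefSeq on GRCm38.p6, 5′ to 3′ on the strand of the gene, with each CpG in capitals. The H2-Aa stretch (chr17:34287824-34288073, minus strand) has 3 CpG and the H2-K1 stretch (chr17:34000334-34000583, minus strand) has 9. The Pou5f1 stretch (chr17:35505782-35506031, plus strand) has 8 CpG and the Ddx39b stretch (chr17:35241496-35241745, plus strand) has 25. Over the 300 bases used for the medians above, the counts are 3 in H2-Aa, 15 in H2-K1, 11 in Pou5f1 and 31 in Ddx39b. A further RefSeq promoter of H2-K1 has 14 CpG over 300 bases, and a further one of Pou5f1 has 6.
H2-Aa: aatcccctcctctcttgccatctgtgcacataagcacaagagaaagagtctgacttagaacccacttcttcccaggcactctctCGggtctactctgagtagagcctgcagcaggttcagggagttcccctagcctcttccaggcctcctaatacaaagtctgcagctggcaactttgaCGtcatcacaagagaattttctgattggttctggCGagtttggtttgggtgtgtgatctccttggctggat
H2-K1: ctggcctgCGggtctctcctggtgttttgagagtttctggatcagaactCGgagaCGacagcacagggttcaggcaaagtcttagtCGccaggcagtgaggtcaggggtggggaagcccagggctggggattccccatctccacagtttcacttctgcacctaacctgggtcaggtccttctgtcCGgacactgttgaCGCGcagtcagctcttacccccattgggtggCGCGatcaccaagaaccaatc
Pou5f1: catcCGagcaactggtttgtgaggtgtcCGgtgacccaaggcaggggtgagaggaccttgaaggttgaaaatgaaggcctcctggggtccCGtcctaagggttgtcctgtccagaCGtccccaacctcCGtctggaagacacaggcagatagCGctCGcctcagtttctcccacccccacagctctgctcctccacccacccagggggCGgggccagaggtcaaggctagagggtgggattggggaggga
Ddx39b: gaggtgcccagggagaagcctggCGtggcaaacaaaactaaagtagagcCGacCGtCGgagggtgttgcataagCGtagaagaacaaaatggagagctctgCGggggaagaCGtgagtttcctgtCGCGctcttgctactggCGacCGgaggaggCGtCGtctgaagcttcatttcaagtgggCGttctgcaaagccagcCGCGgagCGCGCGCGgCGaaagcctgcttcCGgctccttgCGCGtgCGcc

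A level is the percent of methylated calls in a window of 3500 bp. Without read counts in the deposited table, sequencing depth is unknown and intervals for single levels cannot be computed. Coverage was read from how many windows had a value. At a limit of 30000 windows of the genome the embryos fell into 2 sets, unevenly between the groups. Controls 1 to 5 and 10 and mutants 11, 12 and 14 were densely covered, with a value in 227 to 267 and in 240 to 257 windows of the region. The other 4 controls had a value in 52 to 126 windows and the other 7 mutants in 18 to 114. Of their values in the region, 62.8% to 80.8% and 68.4% to 77.8% were exactly 0, against 21.2% to 45.4% and 25.3% to 49.6% in the densely covered controls and mutants. Results are therefore also given for densely covered embryos alone, and the part that coverage plays in the results over all embryos was not tested further.

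In control blastocysts most promoters of the region carried little methylation. Over the 269 windows measured in 3 or more controls, the control mean had a median of 9.69%, with quartiles of 3.96% and 19.3% and a highest value of 61.3%. The median over all windows of the genome was 11.1%. Of the 269 windows, 80 (29.7%) stood under 5%, 126 (46.8%) at 5% to 20%, 56 (20.8%) at 20% to 50% and 7 (2.60%) at 50% or more. The corresponding shares over all windows were 29.1%, 40.3%, 26.8% and 3.79%. Windows that share bases with another window had a median control mean of 6.68% (158 windows). Windows that overlap no other had a median of 16.6%, and all 7 windows at 50% or more were among them. Over the whole genome the same medians were 7.04% and 13.4%.

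Levels changed along the region. It was cut into 13 sections of 200 kb, numbered from the lowest position up. Each embryo got a level per section that corrects for which windows it happened to cover. These levels are built from mean deviations and can fall slightly below 0. Section 5, from 34900000 to 35099999, stood above the rest. Its control level was 29.8% ± 11.3 (SD, n = 9), and 4 of the 313 sections tested in the genome had a higher one, with a median over these sections of 12.4%. Of its 18 windows, 11 had a control mean of 20% or more and 1 stood under 5%. In densely covered controls 1 to 5 and 10, the plain means of its windows were 37.9%, 33.1%, 39.8%, 20.2%, 37.1% and 16.9%. It ranked first of the 13 sections in 5 of these 6 embryos. In control 10 it ranked second, behind section 10 at 27.0%.

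The next highest control levels were 19.4% ± 8.53 (SD, n = 7) in section 10, from 35900000 to 36099999, and 17.2% ± 10.2 (SD, n = 8) in section 13, from 36500000 to 36699999. The lowest were 9.07% ± 3.28 (SD, n = 10) in section 6, from 35100000 to 35299999, 9.17% ± 3.29 (SD, n = 10) in section 11, from 36100000 to 36299999, and 11.2% ± 7.19 (SD, n = 9) in section 9, from 35700000 to 35899999, which holds the position given for Pou5f1. The places of sections 9 and 13 did not hold in the 6 densely covered controls alone. There section 9 averaged 14.55%, and the lowest were sections 6, 11 and 8 (8.02%, 9.15% and 9.34%). Section 13 averaged 14.6% there, below section 3 at 16.6% and section 1 at 15.8%. Over all controls, sparsely covered control 8 stood at 41.2% in section 13. Sections 7, 1 and 6 are the most crowded of the region, with 33, 32 and 29 windows, and section 6 follows directly on section 5. In section 6, 11 of 29 windows stood under 5% and 2 reached 20%. Its 6 densely covered controls lay between 6.58% and 11.7%, all below the lowest of the same embryos in section 5 (16.9%). The remaining 7 sections had control levels between 11.7% and 14.5%, which differ by less than the spread between embryos.

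**Figure D1:**
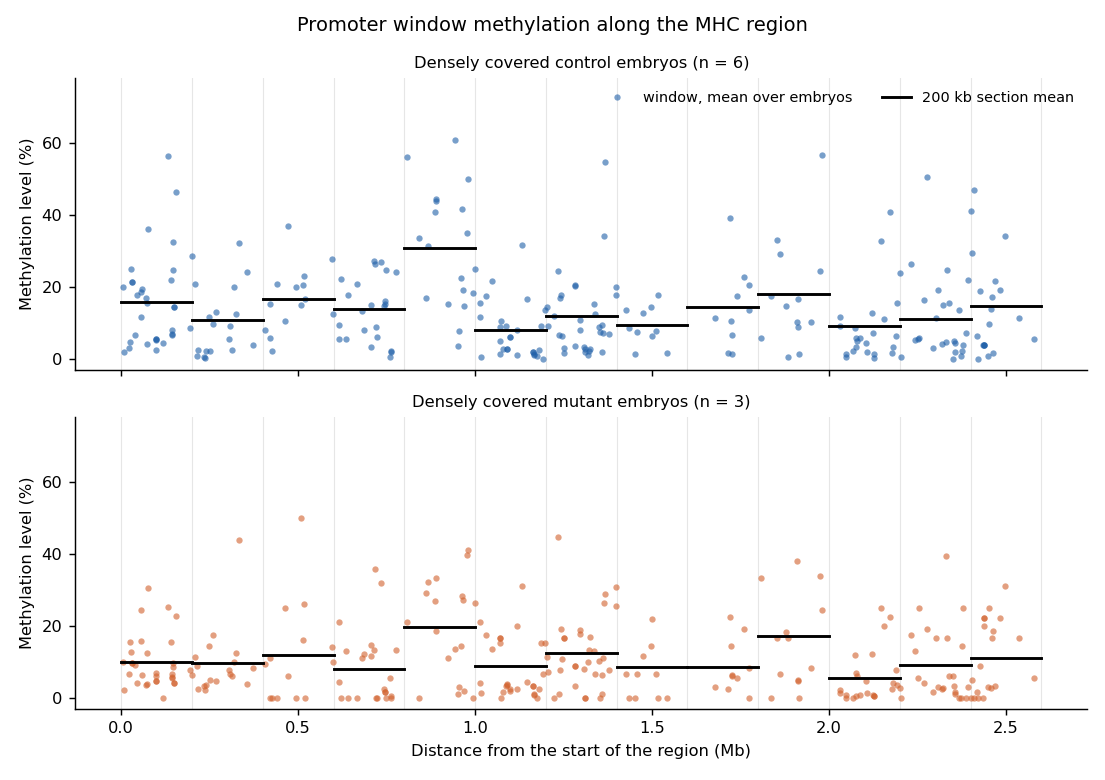
Methylation level (%) of each window of the MHC region (points, mean over the densely covered embryos of the group) against its distance from the start of the region in Mb, with the mean of each 200 kb section as a black line. Section 5, between 0.8 and 1.0 Mb, has a mean of 30.8% in the 6 controls and 19.8% in the 3 mutants.

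Mutant embryos had a lower mean over the region. On the scale of deviations, over the 252 windows measured in 3 or more embryos of each group, controls ranged from 9.89% (replicate 10) over a median of 13.7% to 18.9% (replicate 7). Mutants ranged from 6.73% (replicate 12) over a median of 10.7% to 15.7% (replicate 14). The groups overlapped, with 9 of 10 mutants below the control mean and 4 below the lowest control. The group means were 14.05% ± 3.07 (SD, n = 10) and 10.6% ± 2.78 (SD, n = 10), a difference of -3.45 percentage points (SE 1.31). No p is given, since the region was chosen with earlier results known. Measured the same way, the difference was -1.81 points (SE 1.20) over all windows and -2.51 points (SE 1.26) over the rest of chromosome 17. Whether the region differs from either was not tested. In densely covered embryos alone it was -2.76 points (SE 2.62) in the region and -2.23 points over all windows, and 2 of 3 mutants lay below the lowest control. In sparsely covered embryos alone it was -1.64 points (SE 3.64) over the 14 windows left in the region, smaller than the -3.16 points (SE 1.56) over all windows.

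Windows that share bases with another and windows that do not were also taken apart. Over the 97 windows that overlap no other, the level was 19.03% ± 6.28 in controls (SD, n = 10) and 12.7% ± 6.49 in mutants (SD, n = 10) (-6.38 points, SE 2.86, 9 of 10 mutants below the control mean). Over the 155 overlapping windows it was 10.7% ± 3.24 (SD, n = 10) and 8.87% ± 3.78 (SD, n = 10), a difference of -1.80 points (SE 1.58). Whether these differences differ from each other was not tested. Window by window, 147 of the 252 means (58.3%) were lower in mutants, 103 higher and 2 equal, with a median difference of -1.002 points. Over all windows 55.8% were lower, with a median of -1.07 points, so the share of lower windows in the region lay close to that of the genome.

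The larger differences lay in windows that carry methylation in controls. To keep the choice of windows apart from the reading, windows were placed in classes by 5 reference controls and read in the other 5 controls and in the mutants, with odd-numbered and even-numbered controls swapping roles. In the class at 20% to 50% (51 windows with either set of references) the controls ranged from 12.3% over a median of 27.0% to 36.7%. The mutants ranged from 6.49% over a median of 12.5% to 24.7%. All 9 mutants with a value lay below the control mean and 4 below the lowest control. The means were 25.03% ± 7.50 (SD, n = 10) and 13.8% ± 5.37 (SD, n = 9), a difference of -11.3 points (SE 2.97), against -6.94 points (SE 2.29) for the same class over all windows. In densely covered embryos the difference was -6.55 points (SE 5.60).

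The class at 50% or more had 13 windows with odd-numbered and 5 with even-numbered references. It stood at 41.2% ± 9.12 in controls (SD, n = 8) and 24.4% ± 14.7 in mutants (SD, n = 8). The difference of -16.8 points (SE 6.12) had the same size over all windows (-16.8 points, SE 2.75), and 7 of 8 mutants lay below the lowest control. The classes with little methylation differed by less than the spread between embryos. At 5% to 20% the means were 13.4% ± 3.53 and 12.01% ± 3.97 (SD, n = 10 each), and in densely covered embryos the difference was -3.36 points (SE 2.71), with 2 of 3 mutants below the lowest control. Under 5% they were 5.33% ± 2.49 and 4.64% ± 2.71 (SD, n = 10 each), and in densely covered embryos this class was higher in mutants by 1.604 points (SE 2.04). From the lowest class up, the mutant mean was 87.2%, 89.85%, 55.0% and 59.3% of the control mean. Over all windows these shares were 112.5%, 96.4%, 73.9% and 59.4%. In densely covered embryos of the region they were 136.1%, 76.2%, 71.7% and 59.75%.

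**Figure D2:**
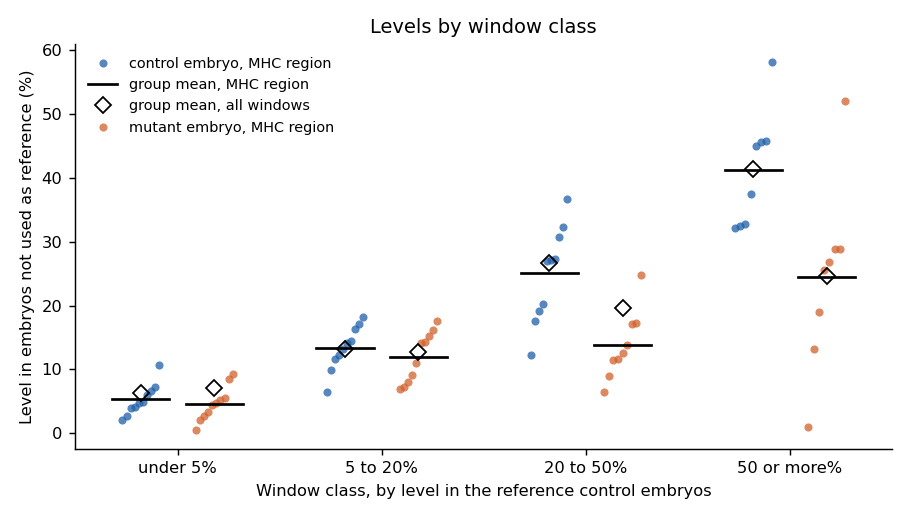
Level (%) of each embryo in the windows of the MHC region, by the class in which the reference controls placed the windows. Points are embryos, black lines the group means in the region and open diamonds the group means over all windows; at 20% to 50% the region stands at 25.03% in controls and 13.8% in mutants.

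Among single windows, 23 were measured in 7 or more embryos of each group. They were tested with limma within a fit over 1620 windows of the genome, with Benjamini-Hochberg adjustment. In the region 1 of 23 passed an adjusted p under 0.05, and it was lower in mutants, against 3 of 1620 over all windows (0.185% called). At an unadjusted p under 0.05, 4 of the 23 (17.4%) were lower, against 4.81% over all windows, and 0 were higher, against 0.864%. Of the 23 differences, 16 were below 0, with a median of -5.09 points, against 52.1% and -0.37 points over the 1620. The 23 are not a sample of the region, since 8 of them lie in section 1. Of the 23, 17 share bases with another window of the region, against 834 of the 1620 over all windows. Some of the 23 share bases with each other, so these counts are not of separate measurements.

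The window past the threshold lies in section 1, the first of the region, from 34255411 to 34258910, and overlaps no other window. Controls 1 to 7 and 10 stood at 32.1%, 38.1%, 58.3%, 38.2%, 60%, 51.3%, 50% and 51.3%. Mutants 13, 16, 18, 19 and 20, all sparsely covered, stood at 0, mutant 12 at 7.14%, mutant 14 at 11.1% and mutant 11 at 50%. So 7 of 8 mutants lay below the lowest control and 1 lay within the control range. The means were 47.4% ± 10.1 (SD, n = 8) and 8.53% ± 17.3 (SD, n = 8), or -38.9 points from controls to mutants (SE 6.84, limma adjusted p = 0.031). Of the 11 windows of the region with a control mean of 40% or more in at least 5 controls it had the lowest control SD, against a median SD of 22.7 points. Windows with less methylation included lower SDs, and a low SD itself favours a call in this test. The call did not hold when control 3, 4, 5, 7 or 10 or mutant 16, 19 or 20 was left out (limma adjusted p from 0.0569 to 0.1035, difference from -40.2 to -37.1 points). Without mutant 11 the difference was -44.8 points (limma adjusted p = 1.024e-05). In densely covered embryos alone it was -23.6 points (limma adjusted p = 0.822).

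The other 3 windows of this fit with an unadjusted p under 0.05 were lower in mutants and failed the correction. The window from 34158818 to 34162317 held 22.4% ± 15.1 in controls (SD, n = 7) and 5.17% ± 6.86 in mutants (SD, n = 7). The window from 34127842 to 34131341 held 28.9% ± 23.6 (SD, n = 8) and 5.49% ± 12.3 (SD, n = 7). Both lie in section 1 as well. The window from 35147229 to 35150728 in section 6 averaged 18.5% ± 13.6 (SD, n = 7) and 5.65% ± 9.20 (SD, n = 8). In each of the 3 the groups overlapped.

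With at least 3 embryos per group, 252 windows of the region entered the limma fit and 0 passed, against 14 of 37645 (0.0372% called). The smallest adjusted p was 0.0695, at the window from 34255411 to 34258910. At an unadjusted p under 0.05, 13 of 252 were lower (5.16%, against 3.9% over all windows) and 4 were higher (1.59%, against 1.85%). These shares lay near those of the genome. Without mutant 11, 1 window passed in this fit, the same one as above.

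The most methylated windows show how far single embryos differ. Among the 156 windows measured in 5 or more embryos of each group, the 6 with the highest control mean included 5 of the 6 with the largest decrease from a control mean of 20% or more. They were picked for those values, so these are descriptions. The window with the largest decrease lies in section 5, from 35041941 to 35045440. Controls 1 to 5, 7 and 10 stood at 82.6%, 52.6%, 80%, 37.0%, 43.8%, 57.1% and 68.8%. Mutants 11, 12, 16 and 18 stood at 0 and mutant 14 at 40.7%. The means were 60.3% ± 17.5 (SD, n = 7) and 8.15% ± 18.2 (SD, n = 5), or -52.1 points from controls to mutants (SE 9.94, limma adjusted p = 0.205), and 4 of 5 mutants lay below every control.

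In the window from 34987369 to 34990868, also in section 5, mutants 11, 12, 13 and 18 stood at 0 and mutant 14 at 81.2%, above the highest of 7 controls (62.9%). The control mean was 39.9% ± 17.01 (SD, n = 7), and the lowest control stood at 16.7%. The window from 34233014 to 34236513 in section 1 held 57.4% ± 20.8 in controls (SD, n = 7), from 30.0% to 93.8%. Mutants 11, 12, 14, 15 and 17 stood there at 26.1%, 11.1%, 38.9%, 33.3% and 0 (-35.5 points, SE 10.6, limma adjusted p = 0.535). The groups overlapped there, with 3 of 5 mutants below the lowest control.

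The highest control mean of the region, 61.3% ± 32.0 (SD, n = 7), was in section 7 from 35467265 to 35470764, where controls ran from 16.7% to 100% and mutants 12, 13, 16 and 18 stood at 0. Mutants 11 and 14 stood there at 41.7% and 45.0% (-46.9 points, SE 14.8, limma adjusted p = 0.574). The window from 36080342 to 36083841 in section 10 had the same kind of spread. Its controls ran from 0 to 100%, with a mean of 55.0% ± 35.7 (SD, n = 7), and its mutants from 0 to 40.0%, with a mean of 14.7% ± 20.2 (SD, n = 5). The last of the 6 highest, from 35080995 to 35084494 in section 5, had the smallest difference of the 6, with 51.8% ± 21.8 in controls (SD, n = 7) and 40.7% ± 17.2 in mutants (SD, n = 6), and the groups overlapped.

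**Figure D3:**
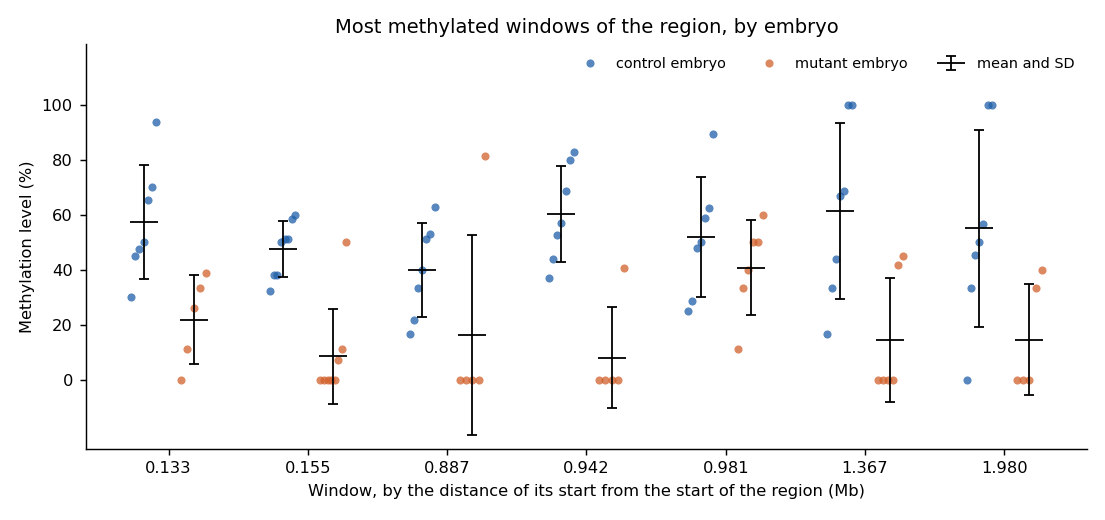
Methylation level (%) by embryo in 7 windows of the region, those with the highest control means and the largest decreases, ordered by the distance of their start from the start of the region in Mb. Blue points are controls, orange points mutants, and bars the mean and SD, which can reach below 0; in the window at 0.942 Mb 4 of 5 mutants stand at 0 and the 7 controls between 37.0% and 82.6%.

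Few methylated windows were higher in mutants. Of the 58 windows of the region with at least 3 embryos per group and a control mean of 20% or more, 51 (87.9%) were lower, with a median of -17.1 points. Over all windows 82.6% of such windows were lower, with a median of -15.2 points, and choosing windows by the control mean itself raises both shares. Of the 27 windows with at least 5 embryos per group and a control mean of 20% or more, 24 were lower and 3 higher. The 3 stood at 26.6% ± 17.6 (SD, n = 9) against 39.1% ± 23.6 (SD, n = 6) from 35232555 to 35236054, at 34.2% ± 22.9 (SD, n = 6) against 38.7% ± 44.8 (SD, n = 5) from 36596883 to 36600382, and at 33.0% ± 21.9 (SD, n = 8) against 34.8% ± 12.9 (SD, n = 5) from 34817125 to 34820624. Each of these differences was smaller than the SD of either group. Among windows with little methylation, 46 of 75 under 5% in controls had a higher mean in mutants (61.3%), against 65.3% over all windows.

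The 4 windows that were higher at an unadjusted p under 0.05 in the larger fit, chosen after their values were seen, lie in 2 places. The windows starting at 36536817, 36537361 and 36537417 overlap almost fully and are one measurement. In the window from 36537361 to 36540860, 6 of 8 controls stood at 0, control 1 at 10.0% and control 10 at 12.5%, while mutants 11, 12, 14, 15 and 19 stood at 0, 50%, 16.7%, 50% and 11.8%. The groups overlapped, and the test failed the correction (limma adjusted p = 0.659). The fourth, from 35423828 to 35427327, averaged 2.08% ± 3.96 (SD, n = 8) and 12.7% ± 9.79 (SD, n = 4).

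Around Pou5f1, 5 windows started within 10 kb of the position near 35.82 Mb given for it on GRCm39, and their levels differed between neighbours. The window from 35820949 to 35824448 was methylated. Controls 1 to 5, 7 and 10 stood at 55.6%, 33.3%, 50%, 31.2%, 50%, 25% and 15.4%. Mutants 11, 12, 13 and 16 stood at 37.5%, 7.69%, 0 and 33.3%. The means of 37.2% ± 14.9 (SD, n = 7) and 19.6% ± 18.6 (SD, n = 4) differed by -17.6 points (SE 9.68, limma adjusted p = 0.834), and 2 of 4 mutants lay within the control range.

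The other 4 windows were low in both groups. The next window, from 35824063 to 35827562, shares bases with the methylated one and stood at 7.86% ± 8.89 in controls (SD, n = 8) and 8.73% ± 11.96 in mutants (SD, n = 5). That from 35824997 to 35828496 held 4.37% ± 5.40 (SD, n = 9) and 3.76% ± 5.37 (SD, n = 5). The window from 35827222 to 35830721 held 0.90% ± 1.87 (SD, n = 8) and 3.03% ± 7.42 (SD, n = 6), where mutant 12 at 18.2% was the only mutant above 0. On the other side, the window from 35813915 to 35817414 held 1.36% ± 3.60 (SD, n = 7) and 1.48% ± 2.03 (SD, n = 5). None of these 4 differences exceeded the SD of the mutants. In the window from 35827222 to 35830721 the difference of 2.13 points exceeded the control SD of 1.87 points. Which of the 5 windows holds the start of Pou5f1 was not determined, since the gene table is on another build.

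Section by section, 12 of 13 had a lower mean in mutants, and 11 of 13 did so in densely covered embryos. Of the 13, 7 had enough values to be tested with limma, in a fit over 313 sections of the genome. In the region 0 of 7 passed an adjusted p under 0.05, against 3 of 313 (0.958% called). At an unadjusted p under 0.05, 1 of 7 was lower (7.99% over all sections) and 0 were higher (1.92%). All 7 differences were below 0, with a median of -3.80 points, against 62.3% of sections and a median of -1.33 points in the genome.

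Section 1, the first of the region, was the one with an unadjusted limma p under 0.05. Its controls ranged from 1.22% (replicate 9) over a median of 15.8% to 21.1% (replicate 1). Its mutants ranged from 0.36% (replicate 19) over a median of 11.4% to 13.4% (replicate 16). All 9 mutants with a value lay below the control mean, and 2 below the lowest control, a sparsely covered embryo. The means were 14.3% ± 6.29 (SD, n = 10) and 7.94% ± 5.58 (SD, n = 9), or -6.39 points from controls to mutants (SE 2.92, limma adjusted p = 0.473). In densely covered embryos the section stood at 15.8% in 6 controls and 9.97% in 3 mutants. In sparsely covered embryos alone it differed by -1.50 points (limma adjusted p = 0.896).

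Section 5, the most methylated, had the largest difference in percentage points of the 7 tested sections and the widest spread. Relative to level its difference was not the largest. The mutant mean was 69.2% of the control mean there, against 55.4% in section 1, 61.1% in section 11 and 67.6% in section 2. In sections 4, 7 and 6 this share was 72.55%, 82.2% and 87.4%. Its controls ranged from 12.6% (replicate 8) over a median of 33.9% to 44.8% (replicate 7). Its mutants ranged from 10.2% (replicate 12) over a median of 15.5% to 43.7% (replicate 15). Mutants 14 and 15, at 36.0% and 43.7%, lay among the higher controls, and the other 6 lay at 18.2% or below. The means of 29.8% and 20.6% ± 12.3 (SD, n = 8) differed by -9.16 points (SE 5.13, limma adjusted p = 0.615). In densely covered mutants 11, 12 and 14 the plain means were 12.02%, 9.57% and 37.7%, and the section still ranked among the first 3 of the 13 in each.

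Sections 6 and 7 had the smallest differences of the 7. Section 6 stood at 9.07% in controls and 7.93% ± 4.12 in mutants (SD, n = 9) (-1.14 points, SE 2.28, limma adjusted p = 0.900). The levels of section 7, from 35300000 to 35499999, were 13.2% ± 4.43 in controls (SD, n = 10) and 10.8% ± 4.96 in mutants (SD, n = 9) (-2.34 points, SE 2.54, limma adjusted p = 0.824). In densely covered embryos the sign turned in both, with 8.02% against 8.98% in section 6 and 12.02% against 12.6% in section 7. With single embryos left out the difference ran from -2.12 to -0.19 points in section 6 and from -3.56 to -1.29 points in section 7. Whether sections differ from each other in their change was not tested.

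Of the other tested sections, section 2 differed by -3.80 points (limma adjusted p = 0.754) and section 4 by -3.99 points (limma adjusted p = 0.734), each within the spread between embryos. Leaving out single embryos moved both values. Section 2 differed by -0.26 points without mutant 11, -0.80 without mutant 14 and -1.55 without mutant 15. It differed by -1.94 points without mutant 12 and -2.12 without control 8. Section 4 differed by -7.01 points without mutant 14. Windows left with fewer than 3 embryos in a group then dropped out. Of 252 windows in the whole region, 228 stayed without mutant 11 and 222 without mutant 14, while 252 stayed without control 8. What moved the values of sections 2 and 4 was not tested. With all embryos, mutants 11 and 14 stood at 8.94% and 12.85% in section 2, above the mutant mean of 7.93%. Section 11, from 36100000 to 36299999, stood at 9.17% in controls and 5.60% ± 2.80 in mutants (SD, n = 7). Its difference of -3.57 points exceeded the SD of either group, with 6 of 7 mutants below the control mean. It did not pass before adjustment either (SE 2.36, limma unadjusted p = 0.145, adjusted p = 0.644). The 6 sections that had too few values for a test differed by -5.24 points (section 12) to 3.63 points (section 3, from 34500000 to 34699999). Section 3 was the only one of the 13 with a higher mean in mutants, at 17.8% ± 15.9 (SD, n = 5) against 14.1% ± 10.8 (SD, n = 7). Mutant 19 stood there at 44.0%, and in densely covered embryos the mutants were lower, with 11.9% against 16.6%.

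**Figure D4:**
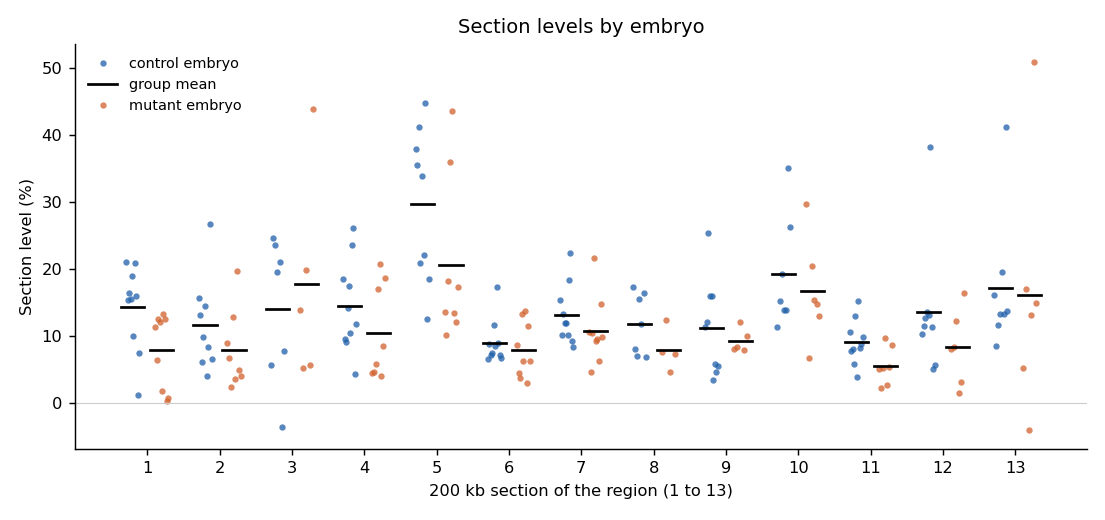
Section level (%) of each embryo in the 13 sections of 200 kb of the MHC region, in order along the chromosome. Blue points are controls, orange points mutants and black lines the group means; section 5 has the highest control mean (29.8%), and section 3 is the only one with a higher mean in mutants (17.8% against 14.1%).

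Densely covered control embryos resembled each other along the region more than densely covered mutants did. Pearson's r across the windows of the region averaged 0.39 over the 15 pairs of controls (0.25 to 0.58) and 0.11 over the 3 pairs of mutants (0.08 to 0.14). Over all windows the averages were 0.33 and 0.12. These are correlations across windows, which are not independent replicates and share bases in many cases, and each pair shares embryos with other pairs.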

How the data were processed

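Per the submitters' processing notes, the tools were Trim Galore 0.4.4 and Bismark 0.18.2, and the build was GRCm39 (mm39). In 1 table the authors deposited the methylation level, in percent, of each promoter window and embryo. How calls were combined within windows was not given in the sources used here. Whole numbers above 100 in the deposited table (1594, with 15 in the region) were read as percents that had lost the decimal point and divided by 1000. Of 54080 rows, 46 repeats were dropped.

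The percent was tested untransformed with limma 3.58.1 in R 4.3.3 (default settings), fitted on all windows of the genome measured in 7 or more embryos of each group, and again with 3 or more. The section level of an embryo is the mean deviation from the mean of both group means of a window, over at least 4 windows, plus the mean of those window means. Sections of 200 kb on a grid over all chromosomes were tested with 7 or more embryos of each group. Adjustment was Benjamini-Hochberg over all windows or sections tested, with a threshold of 0.05. Embryos with a value in at least 30000 windows of the genome are called densely covered. The procedure was tested on simulated data.

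Named are windows past the threshold, the 6 highest control means, the 6 largest decreases and the increases from a control mean of 20% or more (at least 5 embryos per group), the windows within 10 kb of the Pou5f1 position, and the 3 highest and 3 lowest sections. Other windows were picked with their values in view. The members, gene lists and rules were chosen with earlier results of these data known. Alternatives changed filters, variance model, test, section length, overlap and embryos. The table holds no expression, so cell type markers were not checked. Promoter sequences are from RefSeq, GRCm38.p6.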

Additional observations from a re-analysis of the deposited data

Results flagged for a closer look

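These values were singled out because 1 embryo lay far from the others of its group, by Dixon's ratio of the gap to the range in groups of 4 to 10 embryos. Chance flags about 1 in 20 groups when values are normally distributed, which percents with many values of 0 are not. Of the 66 groups checked 10 (15.2%) met the rule, 4 of them groups in which every other embryo stood at 0. No excess over chance can therefore be read from this share.

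Among mutants, replicate 11 stood at 50.0% in the window from 34255411 to 34258910, with the next at 11.1%. Mutant 14 stood at 40.7% in the window from 35041941 to 35045440 and at 81.2% in that from 34987369 to 34990868, where the other 4 mutants were at 0 in each. Mutant 12 stood at 18.2% in the window from 35827222 to 35830721, near Pou5f1, with the other 5 at 0.

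Among controls, replicate 3 stood at 9.52% in the window from 35813915 to 35817414, with the other 6 at 0, and replicate 5 at 5.17% in that from 35827222 to 35830721, with the next at 2.06%. Control 8 stood at 80.0% in the window from 34817125 to 34820624 (next 41.9%) and at 41.2% in section 13 (next 19.6%). Control 6 stood at 38.3% in section 12 (next 13.7%) and control 7 at 17.4% in section 6 (next 11.7%). Controls 6, 7 and 8 are sparsely covered.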

How the results depend on the processing

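The count of 1 window past the threshold fell to 0 with at least 5 or at least 3 embryos per group, with a variance trend and robust fitting, with an exact rank-sum test, and with densely or sparsely covered embryos alone (limma except for the rank-sum test; 15, 17, 2, 4, 8 and 0 windows of the region then had an unadjusted p under 0.05). It ranged from 0 to 1 when single embryos were left out, and stayed at 1 without windows under 5% and with the numbers above 100 left out. With at least 3 embryos per group the count of 0 ranged from 0 to 1. The window from 34255411 to 34258910 was lower in mutants in all 26 alternatives and past the threshold in 14. Sections past the threshold numbered 0 in each of the 27 alternatives. The direction turned in section 2 with at least 5 embryos per group (0.65 points) and, with densely covered embryos alone, in section 6 (1.26 points), section 7 (0.84 points) and the class under 5% (1.604 points). The mean over the region differed by -7.05 points over windows with at least 7 embryos per group, by -1.64 points with sparsely covered embryos alone, and by -3.91 to -2.93 points with single embryos left out. With even-numbered references the class at 50% or more differed by -30.7 points. The cause of these changes was not tested, and leaving out an embryo also changed which windows of the genome met the filters. No paired analysis was possible because controls carry the numbers 1 to 10 and mutants 11 to 20, with none shared. Depth is unknown, and most windows of a sparsely covered embryo have no value or 0.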
